A study of Mus musculus with 2 samples.

Results

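The genes described here are Wnt ligands, their receptors, secreted modulators and the intracellular regulators of beta-catenin in mouse embryonic stem (ES) cells that had received Klf4 siRNA. They were chosen by gene symbol: Wnt, Fzd, Dkk, Sfrp, Rspo, Dvl, Tcf7 and Tle families, Axin1 and Axin2, Lrp5 and Lrp6, Lef1, Ctnnb1, Apc, Porcn, Wif1, Gsk3a and Gsk3b. Among RefSeq mouse genes, 66 symbols met this rule, 1 of them the antisense transcript Fzd10os, and 48 had a named probe on the arrays, of 10137 named genes tested in all. The other 18, among them Apc, Axin1, Gsk3a, Wnt1, Wnt4, Wnt5a, Fzd4, Fzd5, Fzd7, Fzd9, Sfrp1, Rspo4, Tle3, Tle4, Tle5, Wnt8b and Wnt9a, were not analysed here.

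The study hybridised EB5 ES cell RNA in Cy3 against a common reference in Cy5 on 2 two-colour arrays, which form a single group (siKlf4/EB5 number 1 and number 2). The EB5 cells, grown on gelatin without feeders, carried the siRNA and the plasmid pCAGEGFP-IP, with 24 h of culture after transfection and a further 24 h under puromycin selection. The reference was a commercial pool of RNA in equal shares from 11 mouse cell lines, of embryonic, fibroblast, kidney, liver, macrophage, B and T lymphocyte, mammary, myoblast, skin and testis origin. Neither an ES sample without Klf4 siRNA nor a dye swap was among the samples, so every ratio below sets siKlf4 ES cells against a mixture of other cells and none measures what the siRNA did. The labels do not say whether the samples came from separate cultures, so p-values measure only the spread between these arrays, which may be technical.

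Wnt proteins are secreted, lipid-modified ligands that bind a Frizzled receptor together with the co-receptor Lrp5 or Lrp6. Without a ligand, a complex of Axin, Apc and Gsk3 marks beta-catenin for destruction. With one, Dishevelled proteins inactivate that complex, and beta-catenin enters the nucleus and joins TCF/LEF factors, which otherwise repress their targets with TLE (Groucho) corepressors. In mouse ES cells, active beta-catenin signalling is known to favour self-renewal, and Tcf7l1 (formerly Tcf3) is known as a repressor of pluripotency genes that beta-catenin relieves.

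The samples had the profile of ES cells. All 8 measured ES cell markers (Sox2, Pou5f1, Zfp42, Tdgf1, Tcl1, Dppa5a, Dnmt3l and Utf1) were higher than in the reference, at log2 ratios of 1.58 to 5.98, and all 9 measured fibroblast markers were lower, at -4.78 to -0.56. Of the primitive endoderm markers 1 of 8 was higher and 5 were lower, with 1 higher and 3 lower at 2-fold. Of the primitive streak and mesoderm markers 3 of 7 were higher and 2 lower, with none at 2-fold. Over all gene probes 31.6% were higher and 31.4% lower by the rule given below, with 5.08% and 5.19% at 2-fold. Klf4 itself stood at a log2 ratio of 0.51 ± 0.11 (SD, n = 2; limma, adjusted p = 0.000463); with no sample lacking the siRNA, this value does not check the knockdown. A ratio in bulk RNA cannot tell fewer expressing cells from less RNA per cell.

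Most of the Wnt pathway members stood close to the reference pool, and a few stood far from it. The repressor Tcf7l1 was 6.63-fold higher in the ES cells and the corepressor Tle1 was 1.92-fold higher. The agonist Rspo1 was also higher, and the ligand Wnt10a and the corepressor Tle2 were lower; for these 3, 1 channel was not above background, so the size of the change is known only as a minimum. That minimum was 1.37-fold for Rspo1, 1.32-fold for Wnt10a and 1.21-fold for Tle2 without background correction, and 2.8-fold, 2.47-fold and 1.91-fold with it. Reading the loess dye correction at the raised signal of the dim channel changed the corrected values to 2.87-fold, 2.34-fold and 1.87-fold. The values without background correction used that reading too. All depend on the dye normalization and are open to dye bias. A probe is called here when limma gives a Benjamini-Hochberg adjusted p under 0.05 over all 21028 gene probes and both arrays have the same sign. By that rule 10 members were higher (31.6% of all probes were), 9 were lower (31.4% of all probes) and 29 were not called. The 19 called members make up 39.6% of the 48, against 63.1% of all probes. Without background correction 6 were higher and 9 lower, or 31.2% of members against 51.2% of probes. When loess was replaced by median centring 16 were higher and 14 lower, or 62.5% against 71.9%, so the gap between members and probes depended on the scaling.

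At 2-fold or more, 2 members were higher (5.08% of all probes) and 2 were lower (5.19%), together 8.33% of members against 10.3% of probes. These counts use fitted ratios; the minimum for Tle2 falls short of 2-fold with either processing, and those for Rspo1 and Wnt10a do without background correction. The median log2 ratio over the 48 members was 0.01, against -0.01 over all gene probes, and the median absolute log2 ratio was 0.11 against 0.18. Over all 10137 named genes, 1 probe each, the median was -0.005 and the median absolute log2 ratio was 0.24. Spots printed as negative controls, with no mouse gene on them, had log2 ratios of up to 0.52 in size. Beyond that limit lay 6 called members (12.5%, against 22.9% of all probes): Tcf7l1, Rspo1 and Tle1 on the higher side (12.1% of all probes) and Wnt10a, Tle2 and Rspo2 on the lower side (10.8%), so 13 of the 19 called members had ratios no larger than such spots can show.

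**Figure D1:**
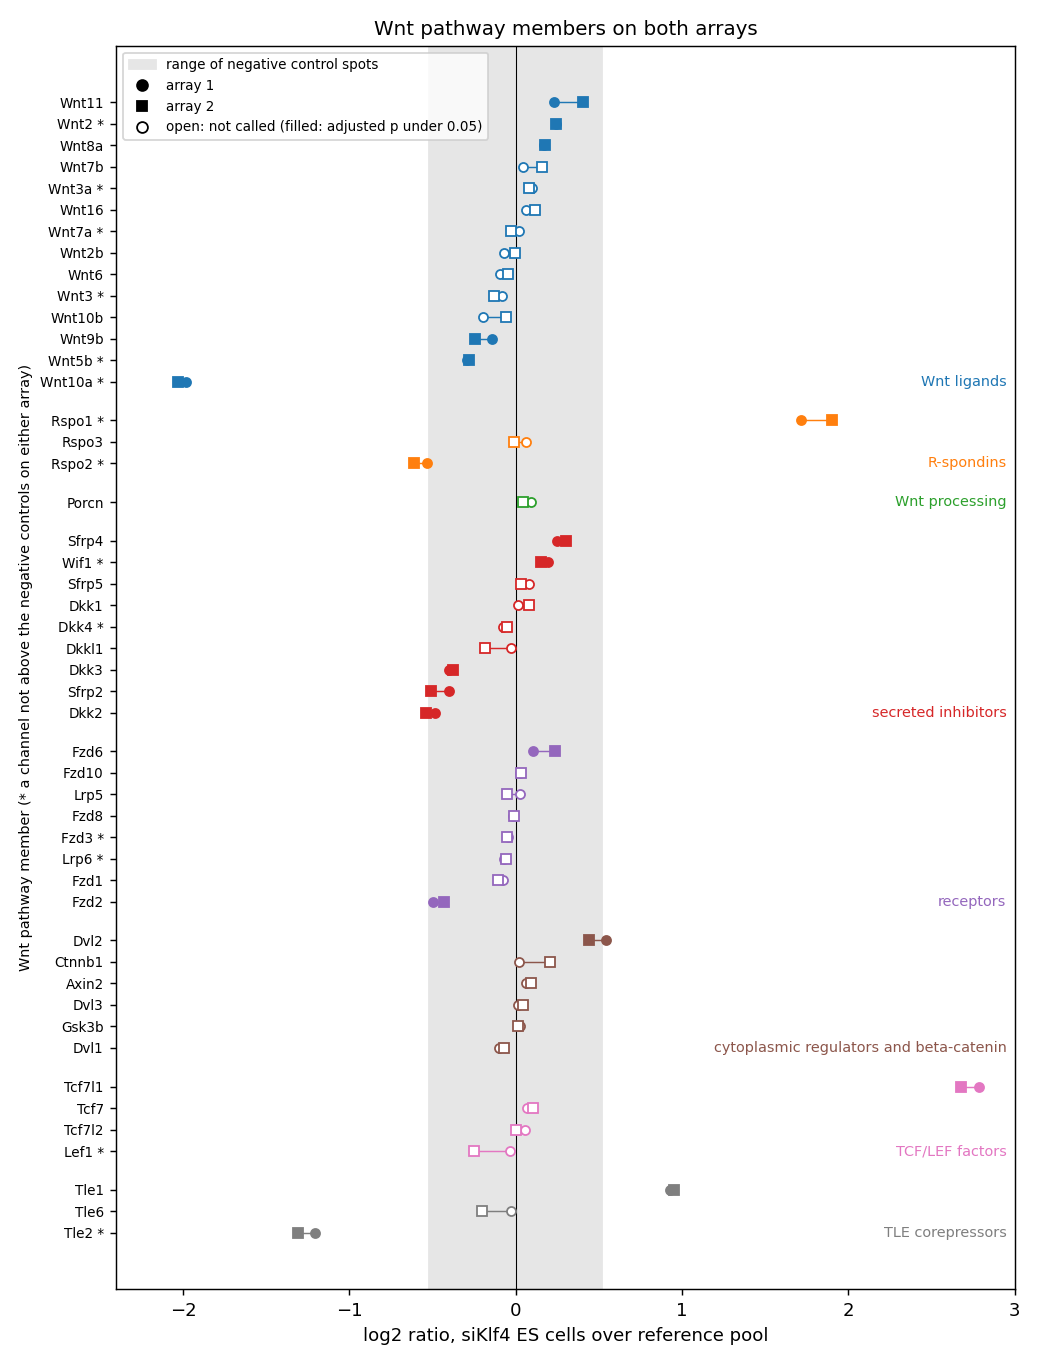
Log2 ratio of siKlf4 ES cells over the reference pool (horizontal axis) for the 48 members, grouped by role, with array 1 as circles and array 2 as squares joined by a line. The grey band covers the ratios of negative control spots, which reached 0.52 in size, and only Tcf7l1, Rspo1, Tle1, Wnt10a, Tle2 and Rspo2 have means outside it.

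Many members gave weak signals. A channel is counted as measured when the spot exceeds the signal that 95% of the 162 negative control spots stay under, which was 155 and 178 intensity units above local background in the ES channel of arrays 1 and 2, and 40.9 and 58.4 in the reference channel. The channels are not on the same scale, so raw units cannot be compared between them. Both channels passed on both arrays for 33 of the 48 members (68.8%, against 81.1% of all gene probes and 86% of named genes). The ES channel failed on both arrays for 13 members and the reference channel for 6. The 5 members that passed in neither channel were Wnt3, Wnt7a, Dkk4, Wif1 and Fzd3. For these weak probes, a ratio near 0 does not show equal RNA, since it was not detectable at this signal.

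**Figure D2:**
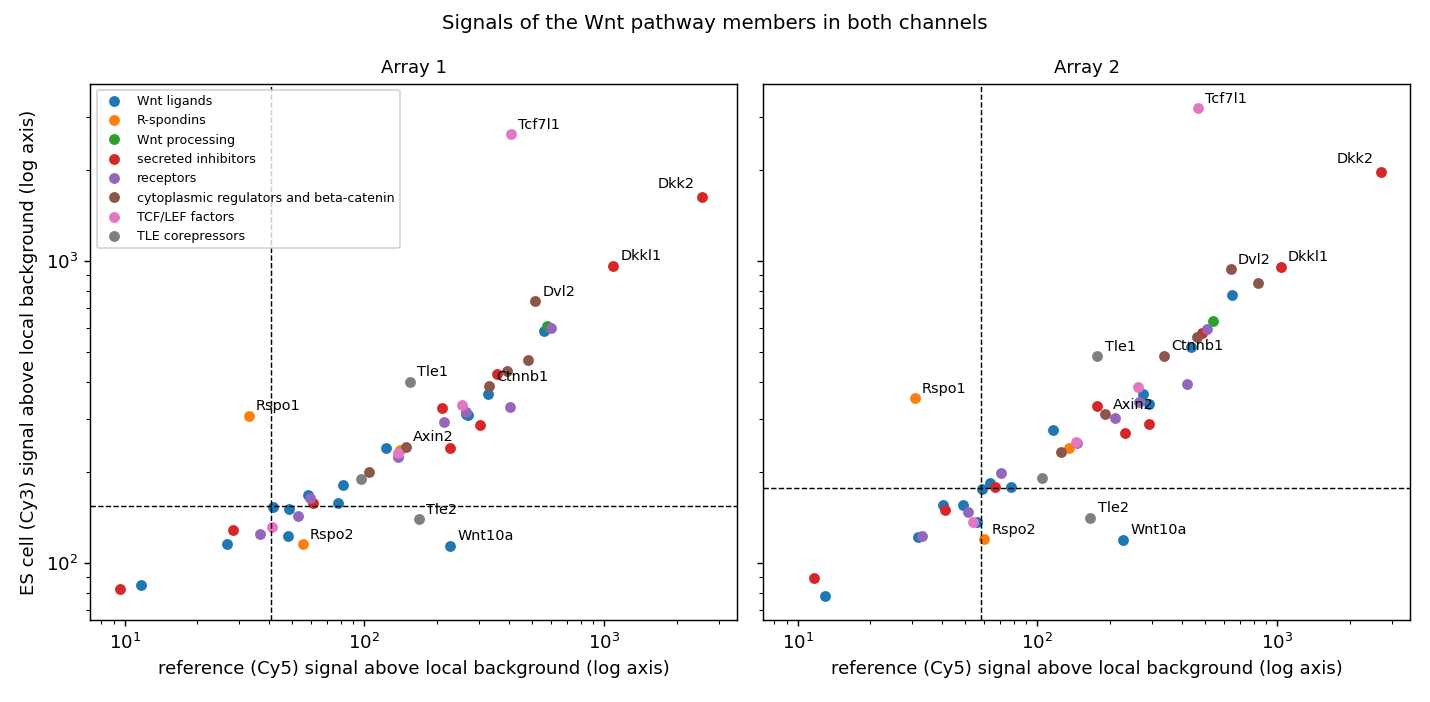
Signal above local background of the 48 members in the ES channel (vertical, log axis) against the reference channel (horizontal, log axis), 1 panel per array, coloured by role. Dashed lines mark these limits, 155 and 178 units for the ES cells and 40.9 and 58.4 for the reference. Wnt10a and Tle2 lie below the ES limit and Rspo1 lies left of the reference limit on both arrays, while Tcf7l1 lies far above the band formed by most members.

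Among the Wnt ligands, 3 of 14 measured genes were higher, 3 were lower and 8 were not called, with a median log2 ratio of -0.02. Called ligands made up 42.9%, against 63.1% of all probes. Wnt10a, a ligand of the canonical pathway known from skin, tooth and fat precursor cells, was the furthest from the reference. Its ES signals were 114 and 120 units, below the negative control limit on both arrays, against reference signals of 228 and 227. The log2 ratios were -1.98 and -2.03, with a mean of -2.01 ± 0.033 (SD, n = 2; limma, adjusted p = 1.41e-06). Both arrays therefore had Wnt10a RNA in the pool and no signal above the limit in the ES cells. With the ES signal raised to that limit, the minimum excess of the reference was 2.47-fold after background correction, or 2.34-fold with the loess correction read at the raised signal, and 1.32-fold without background correction, where the log2 ratio was only -0.55.

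Wnt6 lies next to Wnt10a in the genome, with no other protein-coding gene between them in the RefSeq table, yet its ratio was near 0. Wnt6 gave 312 and 364 units in the ES cells and 264 and 276 in the reference, with log2 ratios of -0.10 and -0.04 (mean -0.07, limma adjusted p = 0.158). A second neighbouring pair, Wnt9b and Wnt3, stood at -0.19 (called lower) and -0.10 (not called, with neither channel of Wnt3 above the limits).

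The other ligands spanned a narrow range. Wnt11, which often acts outside the beta-catenin route, was the highest. Its ES signals of 241 and 276 units stood against 123 and 116 in the reference, and its log2 ratios were 0.23 and 0.40 (mean 0.32 ± 0.12, limma adjusted p = 0.00382). Wnt2 (0.24) and Wnt8a (0.17) were also called higher, and Wnt5b (-0.29) was called lower, but the ES channel of Wnt2 and Wnt5b was not above the limit on either array. Without background correction, Wnt2 and Wnt8a were no longer called. Wnt5b was no longer called with median centring (limma adjusted p = 0.213). The ligands not called were Wnt7b, Wnt3a, Wnt16, Wnt7a, Wnt2b, Wnt6, Wnt3 and Wnt10b, with means from -0.13 to 0.10. Wnt3a, the ligand commonly used to activate the pathway in culture, gave 151 and 156 units in the ES cells, under the limit on both arrays.

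R-spondins are secreted proteins that strengthen Wnt responses by protecting Frizzled receptors from removal at the cell surface. Of the 3 measured, only Rspo1 was called with a direction that held at the negative control limit. Rspo1 gave 308 and 352 units in the ES cells against 32.9 and 30.8 in the reference, where it was below the limit on both arrays. Its log2 ratios were 1.72 and 1.90, with a mean of 1.81 ± 0.13 (SD, n = 2; limma, adjusted p = 4.92e-06). The ES values were thus above the limit on both arrays and the reference values were not. Against the reference limit, the minimum excess of the ES cells was 2.8-fold after background correction and 1.37-fold without it, where the log2 ratio was 0.50. With the loess correction read at the raised signal, the corrected value was 2.87-fold.

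Rspo2 was called lower, with weaker ES signals. It gave 116 and 120 units in the ES cells, under the limit, and 55.3 and 60.2 in the reference, just above it. The log2 ratios were -0.54 and -0.61 (mean -0.57 ± 0.052, limma adjusted p = 0.000107), and no bound can be given, because the ratio loses its sign once the ES signal is raised to the limit. Without background correction Rspo2 stood at -0.11. Rspo3 was measured in both channels and stood at 0.06 and -0.01 (limma adjusted p = 0.594). Porcn, the acyltransferase that adds the lipid to Wnt proteins before secretion, was not called at 0.07.

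No secreted inhibitor had a mean outside the range that negative control spots covered. Of 9 measured, 2 were called higher, 3 lower and 4 not called (55.6% called, against 63.1% of all probes), with a median of -0.06. Dkk2, which binds Lrp5 and Lrp6, gave strong signals of 1631 and 1977 units in the ES cells and 2548 and 2708 in the reference. This gave log2 ratios of -0.48 and -0.54 (mean -0.51 ± 0.038, limma adjusted p = 0.000143), so the pool was higher on both arrays. Sfrp2, which binds Wnt proteins, stood at -0.40 and -0.51 (mean -0.46), and Dkk3, a divergent family member, at -0.40 and -0.38 (mean -0.39). Without background correction these were -0.19 for Sfrp2 and -0.15 for Dkk3, both still called lower.

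Sfrp4 was called higher at 0.25 and 0.30 (mean 0.28, limma adjusted p = 0.00175). Wif1, a Wnt-binding inhibitor, was called at 0.17, but neither of its channels was above the limits, and it was not called without background correction (limma adjusted p = 0.082) or with the negative controls taken as background (limma adjusted p = 0.139). Sfrp5, Dkk1, Dkk4 and the Dickkopf-like gene Dkkl1, known from spermatocytes, were not called, with means from -0.11 to 0.06. Dkk1, itself a known target of beta-catenin, gave 159 and 179 units in the ES cells, at the very edge of the limit.

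Receptors spanned a narrow range. Of 8 measured, 1 was higher, 1 lower and 6 not called (25% called, against 63.1% of all probes), with means from -0.46 to 0.17. Fzd2 gave 330 and 392 units in the ES cells and 404 and 419 in the reference. Its log2 ratios of -0.50 and -0.43 (mean -0.46 ± 0.045, limma adjusted p = 0.000233) put the pool higher on both arrays. Fzd6, which is known to act in planar cell polarity, was called higher at 0.11 and 0.24 but not without background correction (limma adjusted p = 0.112). Fzd1, Fzd3, Fzd8, Fzd10 and both co-receptors were not called, with Lrp5 at -0.01 and Lrp6 at -0.06; the ES signal of Lrp6 was under the limit. Lrp6 was called higher at 0.16 with median centring (limma adjusted p = 0.021) and lower at -0.15 with the negative controls taken as background (limma adjusted p = 0.0328), so it has no settled direction.

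All 6 measured cytoplasmic regulators were above the limits in both channels on both arrays. Only Dvl2 was called (16.7%, against 63.1% of all probes). This Dishevelled gene gave 737 and 944 units in the ES cells against 514 and 641 in the reference. The log2 ratios were 0.54 and 0.44 (mean 0.49 ± 0.070, limma adjusted p = 0.000255), higher in the ES cells on both arrays, while its relatives Dvl1 (-0.08) and Dvl3 (0.03) were not called. With median centring Dvl1 was called lower at -0.27 and Dvl2 was higher at 0.28.

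Beta-catenin itself, encoded by Ctnnb1, gave 386 and 488 units in the ES cells and 330 and 337 in the reference. Its log2 ratios were 0.02 and 0.21, with a mean of 0.11 ± 0.13 (SD, n = 2; limma, adjusted p = 0.126), so the arrays differed by more than the mean departed from 0. The kinase gene Gsk3b stood at 0.02 and 0.01 (limma adjusted p = 0.694). Axin2, a scaffold of the destruction complex and widely used as a readout of beta-catenin activity because it is also a target, gave 243 and 312 units in the ES cells and 149 and 192 in the reference. This gave log2 ratios of 0.06 and 0.09 (mean 0.08 ± 0.022, limma adjusted p = 0.118).

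The TCF/LEF factors, the DNA-binding partners of beta-catenin, held the member with the largest ratio. Each value rests on 1 probe of 60 bases, and bases 16 to 45 of the probes of the family are shown because the 4 genes are related in sequence and a shared stretch could mix their signals; all are 5′ to 3′ as deposited, with no base marked.
Tcf7l1: gactggtaacagcagtgccttaccactgta
Tcf7: aggaggttttgtttgctgtaggtcagatgg
Tcf7l2: tacatgagttaatgtttatggagttcattg
Lef1: atgctttcatgttatatatgaaagaaatga
Over all 1128 pairs of member probes, the longest run of bases that 2 probes shared was 10, so no pair of members was read by near-identical probes. The probes were not compared with the transcripts of other members, so binding of a relative's RNA was not tested.

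Tcf7l1 gave 2634 and 3219 units in the ES cells against 409 and 468 in the reference. Its log2 ratios were 2.78 and 2.68, with a mean of 2.73 ± 0.075 (SD, n = 2; limma, adjusted p = 9.16e-07). Signals of both channels were above the limits on both arrays. Across the other ways of processing, the mean ran from 2.07 without background correction to 2.80 with the scanner software's processed signals, so Tcf7l1 stayed at least 2-fold higher in each of them. Its paralogs did not follow. Tcf7 stood at 0.07 and 0.10 (limma adjusted p = 0.0944) and Tcf7l2 at 0.06 and 0.00 (limma adjusted p = 0.54), both measured in both channels. Lef1, which is known for high expression in lymphocytes, stood at -0.03 and -0.25 (mean -0.14 ± 0.15, limma adjusted p = 0.0892), with the ES signal under the limit on both arrays. By the scanner software's processed signals Lef1 was called lower at -0.17 (limma adjusted p = 0.0466).

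The TLE corepressors, which TCF factors recruit to silence targets, split between Tle1 and Tle2. Bases 16 to 45 of their probes are shown with those of Rspo1 and Wnt10a, since these 4 genes and Tcf7l1 carry the largest ratios.
Tle1: gaaacctgaagaaacctgtttccaaatctt
Tle2: actgagctgcgacatctccaggaataataa
Rspo1: cggatgacctgacttggaaactgcttaaag
Wnt10a: gaaaactaaaaggcagaaatggccgtcatc
For these probes too, no run longer than those 10 bases is shared with the probe of another member.

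Tle1 gave 400.0 and 486 units in the ES cells and 155 and 178 in the reference. The log2 ratios of 0.93 and 0.95 (mean 0.94 ± 0.018, limma adjusted p = 1.21e-05) put the ES cells higher on both arrays. Tle2 gave 140 and 142 units in the ES cells, under the limit, and 169 and 166 in the reference. Its log2 ratios were -1.21 and -1.31 (mean -1.26 ± 0.071, limma adjusted p = 7.44e-06). With the ES signal raised to the limit, the minimum excess of the reference was 1.91-fold after background correction. It was 1.87-fold with the loess correction read at the raised signal, and 1.21-fold without background correction. Without background correction Tle1 stood at 0.41 and Tle2 at -0.35, both still called. Tle6, the neighbour of Tle2 in the RefSeq table and a gene of the oocyte's maternal protein complex, was not called, at -0.03 and -0.20.

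**Figure D3:**
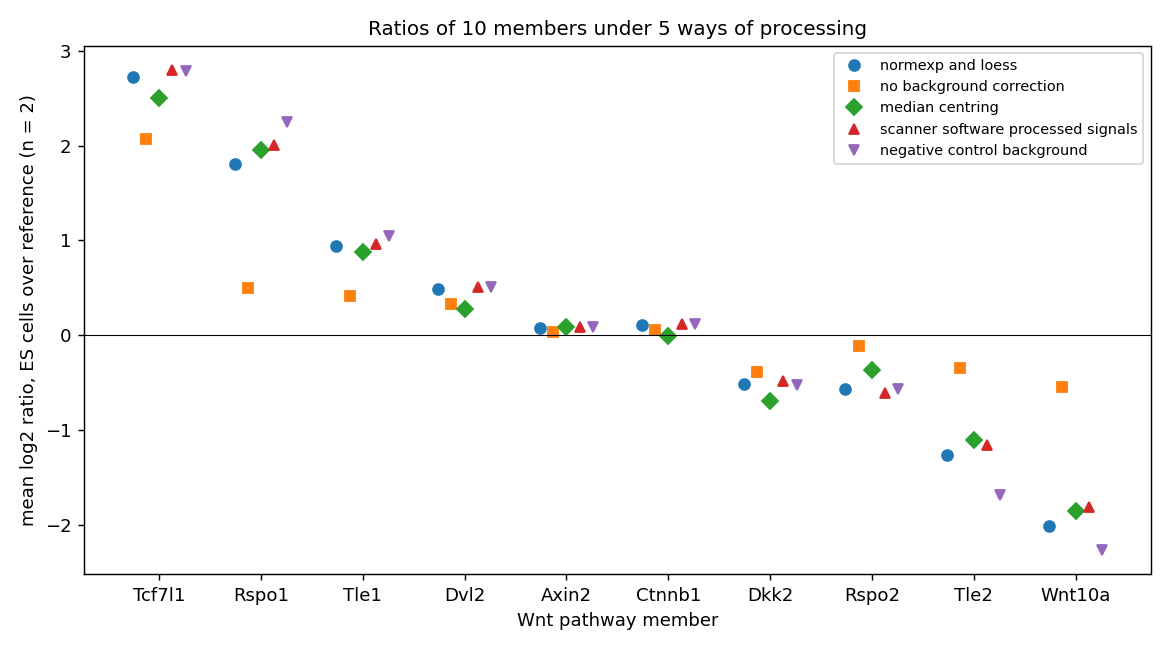
Mean log2 ratio over both arrays (vertical axis) of 10 members under 5 ways of processing the same scans, shown by symbol. Tcf7l1 stays at 2.07 or more in all of them, whereas Rspo1, Tle1, Tle2 and Wnt10a fall to 0.50, 0.41, -0.35 and -0.55 without background correction, and Axin2 and Ctnnb1 stay near 0.

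The spread between arrays was small for most members. The 3 members with the largest difference between arrays were Lef1 (0.22 on the log2 scale), Ctnnb1 (0.19) and Rspo1 (0.18). The largest SD was 0.154, for Lef1.

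TCF/LEF factors recognise a short motif, searched here as CTTTGAT and, on the opposite strand, ATCAAAG, in the 250 bases before each annotated start in a RefSeq promoter table (GRCm38.p6). Of the 48 members 33 matched an entry, and 2 of these (6.1%) held the motif, against 1005 of 27025 genes in the table (3.72%). The 41 bases around each match are shown, with the motif in capitals.
Wnt11, chr7:98835044-98835084, + strand: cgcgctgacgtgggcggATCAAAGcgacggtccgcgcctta
Wnt5b, chr6:119449434-119449474, - strand: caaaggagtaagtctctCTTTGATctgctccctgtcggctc
The motif begins 51 bases before the annotated start of Wnt11 and 71 bases before that of Wnt5b. Their log2 ratios were 0.32 for Wnt11 and -0.29 for Wnt5b. The ratio of Wnt5b loses its sign once its ES signal, which was under the limit, is raised to that limit. A match is a string of letters and not evidence of binding.

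Other genes of the pathway, from a list of 71 symbols, had 37 measured, of which 14 were higher, 13 lower and 10 not called (73% called, against 63.1% of all probes), with a median of -0.01. At 2-fold, 4 of the 37 were higher, against 5.08% of all probes, and 2 were lower, against 5.19%. Cdh1, which encodes E-cadherin and holds beta-catenin at the membrane, stood at 3.06 ± 0.011 (SD, n = 2; limma, adjusted p = 5.1e-07). The protease gene Senp2 (1.19) was also higher. Wls, the carrier that takes Wnt proteins to the cell surface, was lower at -1.33 ± 0.073 (limma adjusted p = 6.3e-06). Serpinf1, a secreted serpin reported to bind Lrp6, was lowest at -2.41. Cer1, a secreted inhibitor of Wnt, Nodal and BMP, was not called at -0.02.

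Of 47 listed target genes, 37 were measured, with 14 higher, 19 lower and 4 not called (89.2% called, against 63.1% of all probes) and a median of -0.13. At 2-fold, 4 of the 37 were higher, against 5.08% of all probes, and 8 were lower, against 5.19%. The list mixes targets from many tissues, shares 3 measured genes with the pathway list, and includes ES cell genes already known to be high in these samples. Tdgf1 (5.98), Nr0b1 (4.03), Mycn (3.53) and Klf2 (3.37) had the largest ratios in size, all genes known from ES cells. Among the lower genes were Ccn1 (-3.27), Fosl1 (-3.19), Id2 (-3.14) and Jun (-2.69), which respond to serum and other signals as well. Targets used as readouts of beta-catenin in embryos and gut had small ratios: T was not called at -0.06, Sp5 was higher at 0.28, Cdx1 (above the reference limit on 1 array) at 0.32 and Notum at 0.33, and Nkd1 was lower at -0.30, all within 0.52 of zero, where control spots also lie.

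**Figure D4:**
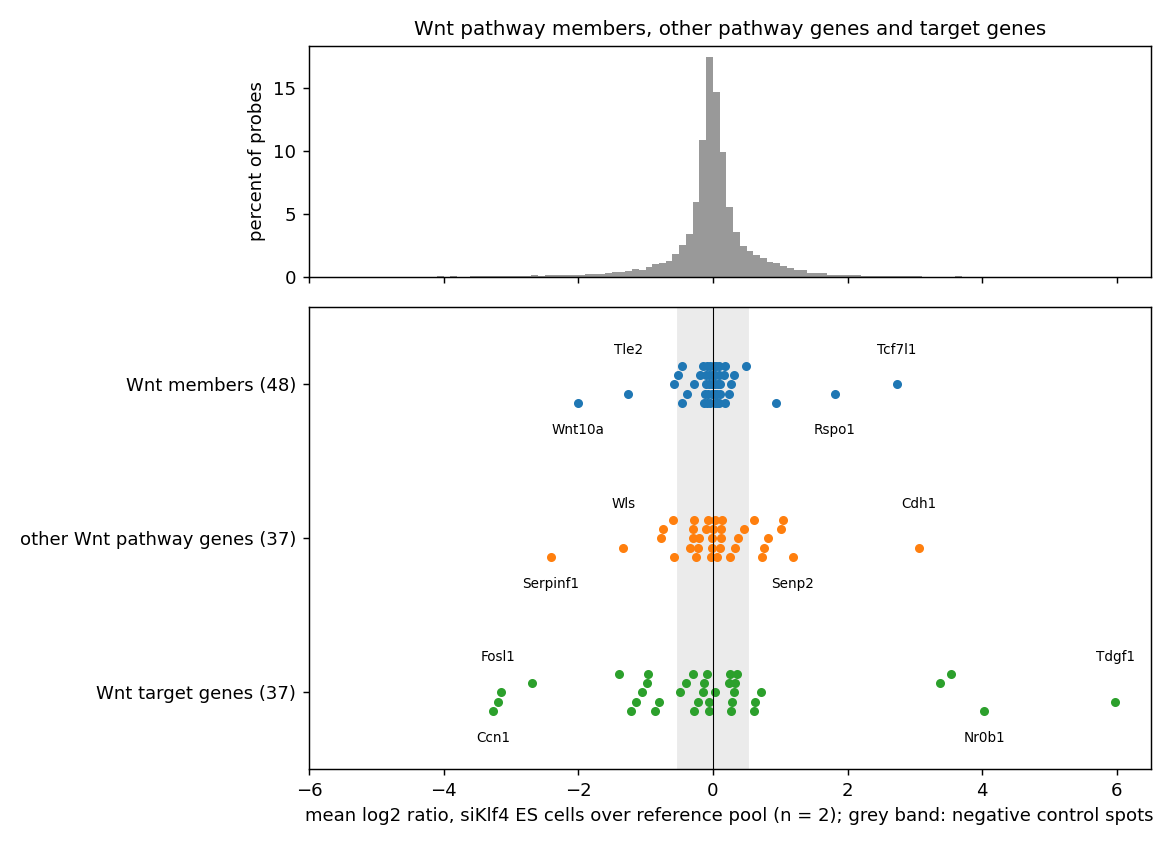
Mean log2 ratio over both arrays (horizontal axis) for the 48 members, 37 other pathway genes and 37 target genes, 1 point per gene, below a histogram of all 21028 gene probes in percent per bin. The grey band marks the negative control spots. The members cluster in the band, whereas the targets reach from -3.27 (Ccn1) to 5.98 (Tdgf1).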

How the data were processed

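RNA abundance was measured on 2 two-colour Agilent arrays with 22132 spots each, of which 21052 were gene probes, 1080 controls and 162 of these negative controls. The deposited scanner files come from Agilent Feature Extraction A.7.5.1, per the file headers. Per the file headers, their intensity values are given as scanned (mean signal of a spot, median of its local background) and, as processed signals, after the software's background subtraction and LOWESS dye normalization. Their deposited log10 ratio was checked to be red over green processed signal. The authors' series table has log10 values made in a way no header or label records. Set against the scanner files, a value is the log10 red processed signal averaged over the arrays, less the array's own log10 ratio (within 2e-04 for 99.62% and 99.61% of probes; column medians 2.918 and 2.921), so the table is not centred.

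From the scanned means, limma 3.58.1 (R 4.3.3) subtracted background by normexp with an offset of 50 and applied loess within arrays, control spots at weight 0. Ratios are log2 of ES cells over reference. Outlier flags removed 24 probes, and 21028 were tested against 0 (lmFit, eBayes, Benjamini-Hochberg adjusted p). Accessions gave 10422 probes 1 symbol and 10630 none; the table, GRCm38.p6, was used for names, neighbours and promoter sequence only. Each member had 1 probe; elsewhere the brightest probe stood for its gene. A bound raises the dim channel to the 95th percentile of the negative controls before correction. With background correction it keeps the probe's loess correction, except where the text says otherwise. Without background correction, the loess correction is read at the raised signal. The number of arrays limits the precision.

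Members, lists and tests were chosen with earlier results of these data known. Every measured member is named. Values per array are given for called members at 2-fold or more and for Ctnnb1, Axin2, Tcf7l1, Lef1 and Gsk3b, and the rule names up to 4 genes from each of the pathway and target lists. Values of other members, and all further genes named from the lists (such as Cer1, Ccn1 and T), were chosen after their values were seen.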

Additional observations from a re-analysis of the deposited data

How the results depend on the processing

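No paired analysis was possible because the labels give a single group, measured against a common reference. The deposited series table was not run as a separate setting, because it holds no reference channel of its own and carries the ratios of the processed signals. Leaving out an array left no test, so only values are given: the median over members ran from -0.008 to 0.016, and Klf4 from 0.43 to 0.59.

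Of the 19 called members, 15 kept their call and direction without background correction, 18 with median centring (12 others were gained), 19 with the processed signals (1 gained), 18 with the negative controls as background (1 gained) and all 12 of those that passed the limits in both channels on both arrays. None of these 19 calls was reversed in those settings, and 14 were called in the same direction under all of the first 4. The negative control background and the limit at 0.52 were added after the data were seen.

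Without background correction 6 members were higher, 1 at 2-fold, and 0 were 2-fold lower, although 9 were still called lower. Over all probes the 2-fold counts fell from 1068 to 510 higher and from 1092 to 467 lower. The 2-fold counts of the other pathway genes were then 1 higher and 1 lower (from 4 and 2), and 4 targets were 2-fold lower (from 8). With median centring 16 members were higher and 14 lower, and 1 other pathway gene was 2-fold higher. Of the members not called in the report, 4 were then called with the opposite sign: Wnt7a moved from -0.01 to 0.16, Fzd3 from -0.05 to 0.14, Lrp6 from -0.06 to 0.16 and Fzd10 from 0.03 to -0.16. Among probes above the limits in both channels, 7 members were higher and 5 lower, or 36.4% of 33 members against 62.7% of 17058 probes. At 2-fold, 1 member was higher and 0 were lower, against 1034 and 905 of those probes. The member counts are smaller because this filter leaves out 15 members, Rspo1, Wnt10a and Tle2 among them. With the negative controls as background, 39.6% of members were called, against 57.4% of probes. The median over members was 0.03 with median centring, 0.032 with the processed signals, 0.029 above the limits and 0.031 with the negative controls as background. Beyond every negative control spot, 3 members were higher and 3 lower, 8 and 6 other pathway genes, 7 and 12 targets, and 2552 and 2273 probes. The cause of these changes was not tested, apart from the shorter lists and the higher limit. Signal over background limits the 13 members not above the negative controls in the ES cells, and without a dye swap a dye effect stays in every ratio.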
